A study of Mus musculus with 6 samples.

Results

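The genes described here are 49 mouse genes known to be imprinted in at least one tissue, among them Cdkn1c, the gene of the cyclin-dependent kinase inhibitor p57. They were chosen by symbol from a list built around Cdkn1c, and all 49 were found by symbol among the 49671 Ensembl genes counted. Cdkn1c was singled out for its fold change between knockout and control cells in these same libraries, so for the members that comparison is a description. Calls are read from a fit across all genes and support nothing about the choice of members. The members fall into 20 imprinted domains or single loci, of which 11 hold more than 1 member.

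Imprinted genes are transcribed mainly from the copy inherited from one parent. Most lie in domains with an imprinting control region, a stretch of DNA methylated in the egg or the sperm, and many domains hold a long non-coding RNA expressed from the opposite parental copy to the protein-coding genes. Several have roles in fetal growth and in fat tissue: Dlk1 and Mest are used as markers of adipose precursors and of fat mass, and Grb10 restrains insulin signalling. The cells came from C57BL/6 mice, an inbred strain, and the values are counts per gene, so the parental copies cannot be told apart here. The parental allele named for each member is background knowledge from mouse studies, and for Ube3a, Blcap, Trappc9, Commd1 and the placental members it holds only in some tissues.

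RNA-seq of total RNA depleted of ribosomal RNA was made from an immortalised line of inguinal white fat preadipocytes of 3-month-old C57BL/6 Tcf7l2 F/F mice, which carry floxed copies of Tcf7l2, a transcription factor gene of the Wnt pathway. All cells carried SV40 large T antigen and a retroviral CreERT2, a Cre recombinase activated by 4-hydroxytamoxifen. Control cells (labelled wild type, 3 libraries) received ethanol and knockout cells (labelled Tcf7l2 Knock out, 3 libraries) received 4-hydroxytamoxifen, each for 24 h and 2 days before differentiation began. Both were induced with 1 µM dexamethasone, 0.5 mM isobutylmethylxanthine and 5 µg/mL insulin, then kept in insulin until day 8, with an agent at 5 nM whose code number in the labels rises by 1 from library to library. Deletion and drug treatment coincide in every library, so they cannot be told apart. Whether libraries within a group are separate cultures is not stated, so a p-value reflects only the spread among these 6 libraries, possibly technical.

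The libraries held 26621293 to 33484764 counts. Levels are given as CPM, counts scaled to library size with the TMM method of edgeR, and a gene is called where its edgeR p-value, adjusted over all tested genes, was under 0.05. Control replicate 3 and knockout replicate 2 stood apart from the other 4 libraries on the second principal component (15.9% of the variance), without separating the groups. Tcf7l2 was at 7.71, 6.13 and 9.11 CPM in the control libraries and 5.65, 6.85 and 5.86 CPM in the knockout libraries and was not called; gene-level counts cannot show whether a floxed part, which the labels do not name, was removed. All 12 adipocyte markers were called higher in knockout cells (11.9% of all tested genes were), with a summed level of 6468 to 6670 CPM in control and 9563 to 11261 CPM in knockout libraries. Of 12 preadipocyte and fibroblast markers 3 (Col3a1, Dcn and Thy1) were called lower and 0 higher, where 10.5% of all tested genes were called lower. Their sums were 29728 to 30954 and 25283 to 26476 CPM, most of it Col3a1, and without Col3a1 the groups overlapped (5382 to 5685 and 5071 to 5712 CPM). In bulk RNA, fewer cells of a type and less RNA per cell cannot be told apart, and the part of the adipocyte marker difference in the values below was not tested. The endothelial genes Pecam1, Cdh5 and Tie1, the blood cell genes Ptprc and Itgam and the muscle gene Myod1 were at or near 0, and Adgre1, Cd3e, Hbb-bs, Pax7, Myf5, Myh3 and Sox10 had 0 counts. By whole list, the sums in control and knockout libraries were 23.7 to 25.7 and 27.0 to 28.3 CPM for 7 endothelial genes, with 1 of 3 tested (Kdr) called higher, and 3.97 to 5.09 and 4.35 to 4.78 CPM for 9 blood cell genes, with 0 of 2 tested called. They were 0.983 to 1.95 and 1.42 to 1.69 CPM for 7 muscle genes, 18.9 to 20.3 and 19.7 to 23.2 CPM for 5 mesothelial genes, and 20.6 to 24.6 and 17.8 to 21.4 CPM for 7 Schwann cell and neuronal genes, with 0 of their 6 tested genes called.

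Promoter windows from RefSeq (GRCm38.p6, 250 bases before to 50 after a start) were found for 39 members, in 54 windows. Cdkn1c, H19, Impact, Klf14, Peg10, Peg13, Qpct, Rtl1, Sgce and Trappc9 had none. Windows of members held a median of 14 CpG dinucleotides, against 7 over all 32851 windows. The hexamer TGCCGC, the core bound by the imprint-protecting zinc finger protein ZFP57 when methylated, lay on either strand in 24.1% of member windows and 11.6% of all windows. The hexamer itself holds a CpG, so its share is not independent of the CpG counts, and a difference beyond them was not tested. Snrpn and Snurf have the same window, and 2 windows of Mest overlap. The TCF/LEF core CTTTGAT, searched on both strands, lay in 0 member windows and in 3.73% of all windows. With only 54 member windows, richer in CpG than all windows, a difference from that low share was not tested. A match describes letters only. Plagl1 and Slc22a3 are shown because, after Cdkn1c, they had the largest fall and the largest rise among called members. Mest is shown because this window held TGCCGC 2 times, as did a window of Calcr and that of Nap1l5, while another Mest window held 0. Capitals mark the hexamer, here read on the opposite strand as GCGGCA.
Plagl1, chr10:13090582-13090881, plus strand: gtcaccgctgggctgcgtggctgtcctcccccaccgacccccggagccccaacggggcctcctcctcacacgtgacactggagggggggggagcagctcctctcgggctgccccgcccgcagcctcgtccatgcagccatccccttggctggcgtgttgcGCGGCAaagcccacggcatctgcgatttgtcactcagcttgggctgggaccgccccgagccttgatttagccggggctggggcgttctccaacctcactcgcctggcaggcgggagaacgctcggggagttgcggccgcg
Mest, chr6:30737800-30738099, plus strand: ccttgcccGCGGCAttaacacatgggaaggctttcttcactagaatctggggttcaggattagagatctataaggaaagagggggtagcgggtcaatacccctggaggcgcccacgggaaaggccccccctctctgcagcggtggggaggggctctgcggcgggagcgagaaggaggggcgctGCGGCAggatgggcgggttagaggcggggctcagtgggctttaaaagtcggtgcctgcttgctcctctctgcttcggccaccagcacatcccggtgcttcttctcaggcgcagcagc
Slc22a3, chr17:12507655-12507954, minus strand: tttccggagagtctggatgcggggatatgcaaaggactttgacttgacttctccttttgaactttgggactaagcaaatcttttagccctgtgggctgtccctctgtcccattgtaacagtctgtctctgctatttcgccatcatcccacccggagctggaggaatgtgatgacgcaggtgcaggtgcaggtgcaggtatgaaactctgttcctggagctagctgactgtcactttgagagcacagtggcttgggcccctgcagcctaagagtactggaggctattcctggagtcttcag
The Plagl1 window held 26 CpG, the Mest window 17 and the Slc22a3 window 5, and the Slc22a3 window held 0 copies of the hexamer.

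Levels of the members spanned a wide range when expressed per exon length. CPM was divided by the length in kb of all annotated exons of a gene merged, so the order of members depends on that length. In control cells 12 members were at 10 or more CPM per kb, 15 between 1 and 10, and 22 under 1. The tetraspanin gene Cd81 stood highest at 185 CPM per kb, above 98.8% of all tested genes. Cdkn1c was next at 101 CPM per kb, then Gnas, which encodes the stimulatory G protein alpha subunit, at 57.9 and the long non-coding RNA H19 at 39.6. In CPM, without division by length, Gnas stood above Cd81 in control cells (means of 648 and 533 CPM). The merged exons span 11186 bases for Gnas and 2879 for Cd81. In knockout cells Cdkn1c was at 22.1 CPM per kb. Peg3 (0.248) and Meg3 (0.49 CPM per kb in control cells) were among those under 1, and the lowest tested member was Zim1 (0.0495). The merged exons of Meg3 span 18089 bases, and its mean was 8.86 CPM in control cells.

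**Figure D1:**
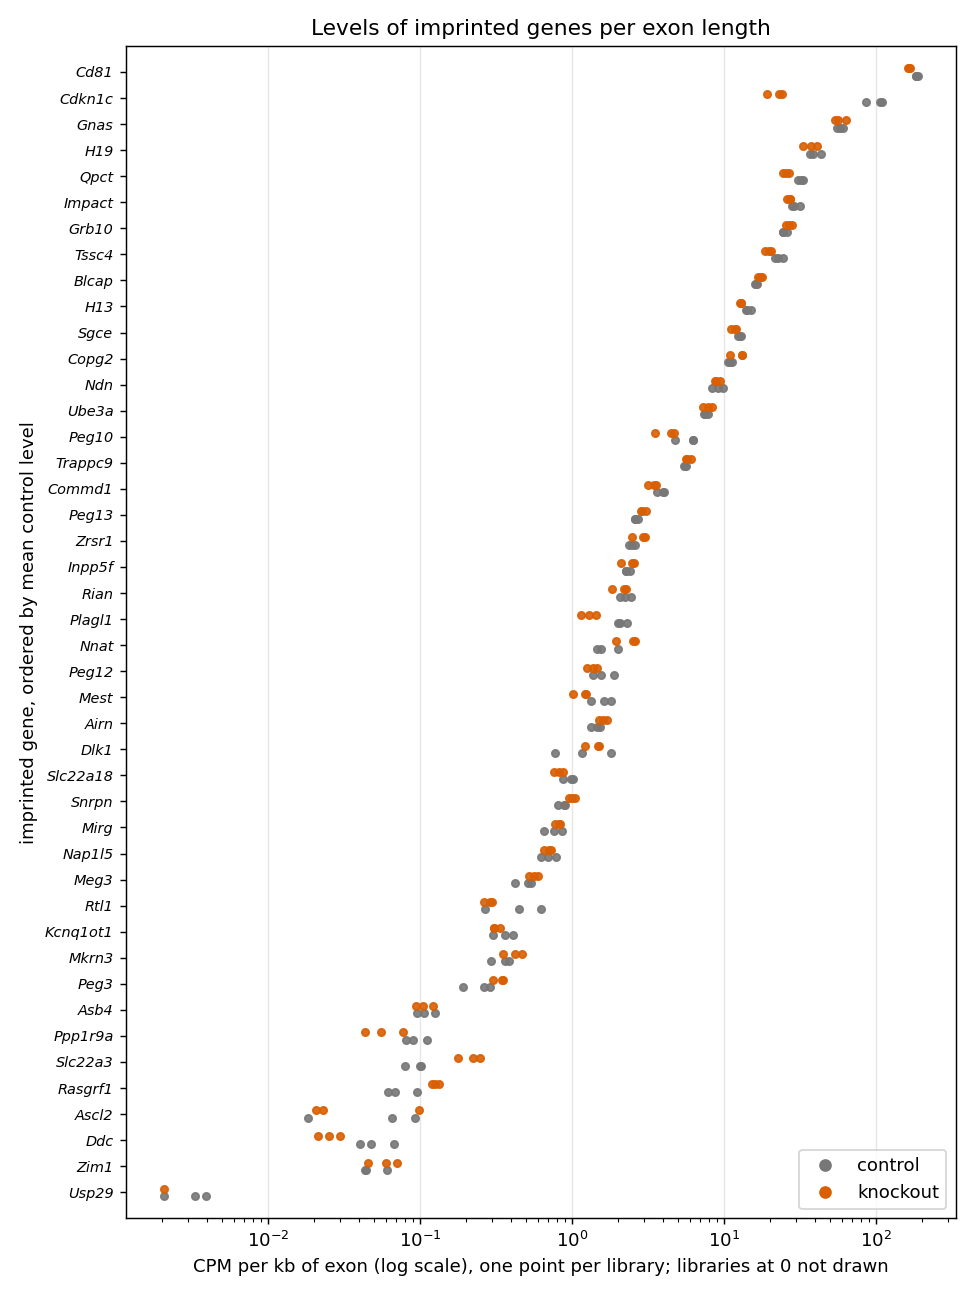
Level of each imprinted gene with at least 1 count, in CPM per kb of exon on a log axis, with 1 point for each control (grey) and knockout (orange) library, ordered by the mean control level. Cd81 and Cdkn1c lead in control cells, and the knockout points of Cdkn1c lie to the left of its control points, at a mean of 22.1 against 101 CPM per kb.

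Phlda2, Magel2, Snurf, Klf14 and Calcr had 0 counts in all 6 libraries. A count of 0 allows a level of up to 0.0893 to 0.113 CPM (3 counts in a library, counting error only). Every exonic base of Snurf (216 bases) is shared with Snrpn, so its 0 cannot be read as absence of its transcript. Usp29 (6 counts in all libraries together), Ascl2 (15) and Ddc (30) were also too low to be tested.

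Of the 41 tested members, 10 were called at an edgeR adjusted p under 0.05, or 24.4%, against 22.4% of all 14946 tested genes. Lower in knockout cells were 7 (10.5% of all genes were called lower): Cdkn1c, Plagl1, Mest, Qpct, Tssc4, Cd81 and H13. Higher were 3 (11.9% of all genes): Slc22a3, Rasgrf1 and Nnat. The median log2 fold change of the tested members was -0.0095, and that of all tested genes -0.0017. The median size of the log2 change, without sign, was 0.18 for members and 0.14 for all genes. The CPM of the groups did not overlap for 12 members lower and 6 higher in knockout cells, where 19.3% and 18.5% of all genes did so. Among members whose maternal allele is known to be expressed, 5 of 20 tested were called lower and 1 higher (median log2 fold change -0.061), and among paternally expressed members 2 of 20 were called in each direction (median 0.014); the difference was not tested. None of the 7 tested non-coding RNAs was called by edgeR, while 10 of 34 protein-coding members were (29.4%, against 22.4% of all tested genes). Cdkn1c is among those 10, and with only 7 non-coding RNAs the difference between gene types was not tested. Kcnq1ot1 among these RNAs was called in 1 alternative fit, without control replicate 1 (edgeR adjusted p = 0.0272). Leaving out knockout replicate 3 left 5 called members, and leaving out control replicate 1 left 6.

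**Figure D2:**
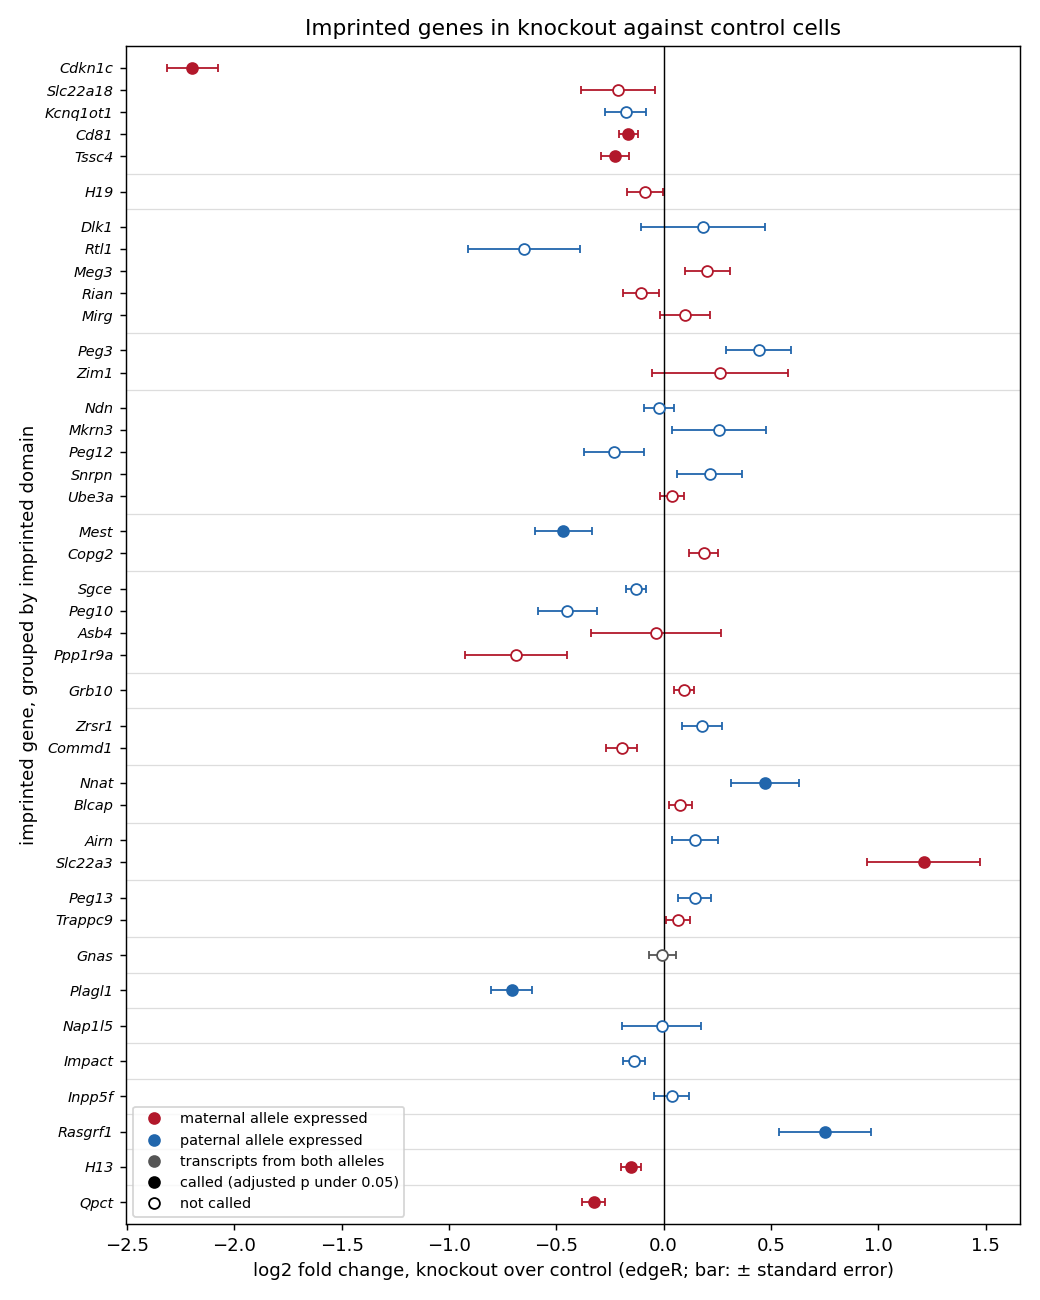
Log2 fold change of knockout over control for the 41 tested members, with standard errors, grouped by imprinted domain between the grey lines and coloured by the parental allele known to be expressed (filled: called, open: not called). Cdkn1c at -2.20 lies apart from the other members, which run from -0.71 (Plagl1) to 1.21 (Slc22a3).

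The domain of Kcnq1, on distal chromosome 7, holds Cdkn1c. Its maternally expressed genes are silenced on the paternal copy by the long non-coding RNA Kcnq1ot1, which starts inside Kcnq1. Cdkn1c (ENSMUSG00000037664; GRCm38 chromosome 7, 143458339 to 143461050, minus strand) was at 224, 176 and 216 CPM in the control libraries and 48.9, 39 and 47 CPM in the knockout libraries. Each control library was more than 3 times any knockout library, and control replicate 2 was the lowest of its group. The mean was 206 ± 25.7 CPM for control and 45 ± 5.29 CPM for knockout cells (SD, n = 3), with a log2 fold change of -2.20 (SE 0.12). The call and its direction held in every one of the 15 alternative fits, with log2 fold changes of -2.30 to -2.06.

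Kcnq1ot1 (GRCm38 chromosome 7, 143203458 to 143296549, minus strand) was at 28.1, 34 and 38 CPM in control and 31.1, 28.5 and 28.6 CPM in knockout libraries (log2 fold change -0.18, SE 0.10). The groups overlapped, and the gene was not called. The ratio of Kcnq1ot1 to Cdkn1c counts ran from 0.125 to 0.192 over the control libraries and from 0.609 to 0.733 over the knockout libraries. As Kcnq1ot1 was not called, this ratio mainly restates the fall of Cdkn1c, for which that gene was singled out. Kcnq1 itself had 0 to 2 counts per library, so that the antisense RNA was measured where its host gene was almost silent.

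The fitted differences of the other tested members of the domain were far smaller than that of Cdkn1c. Cd81, which encodes a tetraspanin of the cell surface, was at 532, 543 and 525 CPM in control and 482, 470.3 and 476 CPM in knockout libraries, and the groups did not overlap (1.12-fold lower). Tssc4, which encodes a splicing-related protein, was at 45.3, 41.7 and 40.1 CPM in control and 37.8, 34.5 and 36.4 CPM in knockout libraries (1.17-fold lower). It shares 11.9% of its exonic bases with Trpm5 (0.0461 CPM) on the opposite strand. Cd81 lost its call when knockout replicate 3, control replicate 1 or control replicate 2 was left out (edgeR adjusted p of 0.0698, 0.056 and 0.0571), and Tssc4 lost it without control replicate 1 or knockout replicate 3 (0.115 and 0.0673). Slc22a18, a transporter gene next to Cdkn1c, was at 1.49, 1.66 and 1.73 CPM in control and 1.3, 1.4 and 1.49 CPM in knockout libraries and was not called, with a log2 fold change of -0.21 (SE 0.17). Ascl2, a trophoblast transcription factor gene, had 1 to 5 counts per library.

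To show how far the difference at Cdkn1c extended, every tested gene whose start lies within 500 kb of its own start was read. There were 18 such genes, 13 of them no members, and 6 were called (33.3%, against 22.4% of all tested genes). Of the 13, 3 were called (23.1%). Gm44732, an antisense transcript whose start lies 1.3 kb from that of Cdkn1c, was at 0.953, 0.744 and 0.452 CPM in control and 0.1, 0.319 and 0.0747 CPM in knockout libraries (4.23-fold lower). Of its 635 exonic bases, 625 are shared with Cdkn1c on the opposite strand, which is 30.7% of the exonic bases of Cdkn1c. It had only 2 to 32 counts per library, against 1223 to 7538 for Cdkn1c, and the strand setting of the counting is not given. Its reads therefore cannot be told apart from those of Cdkn1c, and whether its fall is a separate one was not tested. Nap1l4, a histone chaperone gene with a start 88.1 kb away, was at 126, 120.2 and 119 CPM in control and 145, 138 and 142 CPM in knockout libraries and rose (log2 fold change 0.22, SE 0.047). The decoy receptor gene Tnfrsf22, 189 kb away, was at 0.655, 0.673 and 0.829 CPM in control and 1.3, 1.15 and 1.08 CPM in knockout libraries (1.65-fold higher).

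Between them, Cars (log2 fold change -0.10, SE 0.048) and Tnfrsf26 (log2 fold change 0.24, SE 0.12) were not called. Nor were Tnfrsf23 (log2 fold change 0.28, SE 0.15), Osbpl5 (log2 fold change 0.0058, SE 0.054), Mrgpre (log2 fold change -0.51, SE 0.24), Nadsyn1 (log2 fold change 0.043, SE 0.11) and Dhcr7 (log2 fold change 0.29, SE 0.10) on the same side. On the other side, next to Cd81, R74862 (log2 fold change -0.17, SE 0.13) and Tspan32 (log2 fold change -1.01, SE 0.37) were not called either. The small nucleolar RNA gene Gm23297 had about 0.33 CPM in control cells and was not called, with a log2 fold change of 0.19 (SE 0.47). A change of the size seen at Cdkn1c was fitted at no other tested gene of this window except Gm44732, whose reads cannot be told apart from those of Cdkn1c. Without knockout replicate 3 the called genes of the window fell to 3, and 1 gene of it was called higher when knockout replicate 3, control replicate 1 or control replicate 2 was left out.

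**Figure D3:**
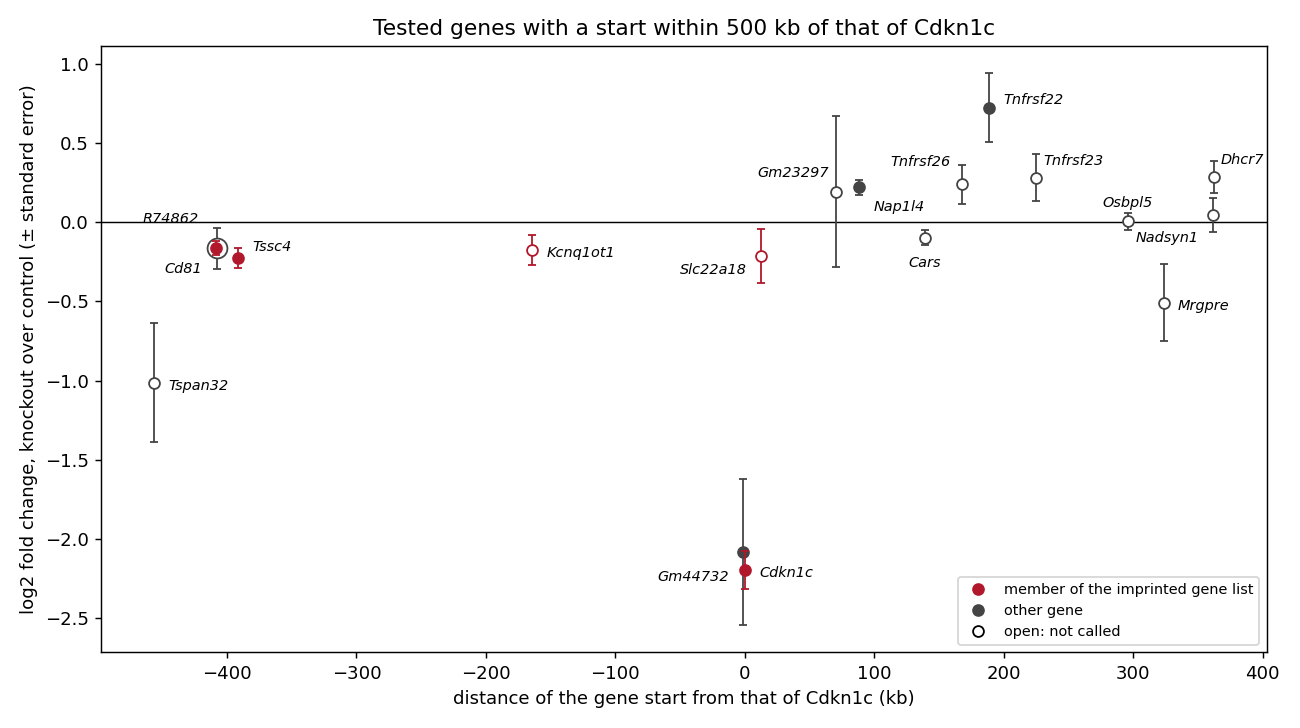
Log2 fold change of knockout over control, with standard errors, against the distance of each gene's start from that of Cdkn1c in kb, for the 18 tested genes within 500 kb (red: members, grey: other genes, open: not called). Cdkn1c and the antisense Gm44732 lie near -2, while the others lie between -1.01 and 0.72. Gm44732 shares 625 of its 635 exonic bases with Cdkn1c.

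H19 lies on the same chromosome at lower coordinates than Cdkn1c, in the neighbouring domain it shares with Igf2. This long non-coding RNA, host of miR-675, was at 107, 91 and 94.5 CPM in control and 102, 81.3 and 92.2 CPM in knockout libraries (log2 fold change -0.088, SE 0.083). The groups overlapped and it was not called in any fit. Igf2, the growth factor gene of that domain and no member, was at 0.744, 0.744 and 0.716 CPM in control and 2.11, 1.82 and 1.72 CPM in knockout libraries and was called higher (2.55-fold). H19 and Igf2 are expressed from opposite parental copies. Their levels were also far apart, at 39.6 and 0.128 CPM per kb in control cells.

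Plagl1 encodes ZAC1, a zinc finger transcription factor that is itself paternally expressed and is known to regulate other imprinted genes. Plagl1 (GRCm38 chromosome 10, 13060504 to 13131694, plus strand) was at 16.2, 15.8 and 18.1 CPM in the control libraries and 11.3, 10.2 and 9 CPM in the knockout libraries. No knockout library reached the lowest control library. The mean was 16.7 ± 1.24 CPM for control and 10.2 ± 1.17 CPM for knockout cells (SD, n = 3), 1.63-fold lower (log2 fold change -0.71, SE 0.10), and it was called in all 15 alternative fits.

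Qpct encodes glutaminyl cyclase, which forms pyroglutamate at the start of secreted peptides. Qpct (GRCm38 chromosome 17, 79051906 to 79090378, plus strand) was at 81.7, 84.8 and 78.5 CPM in the control libraries and 68.3, 62.1 and 65 CPM in the knockout libraries. The groups did not overlap, at 81.7 ± 3.12 CPM for control and 65.2 ± 3.1 CPM for knockout cells (SD, n = 3) (1.25-fold lower), and it was called in all 15 alternative fits. H13, the gene of signal peptide peptidase, was at 127, 133 and 124 CPM in control and 116, 116 and 114 CPM in knockout libraries (1.11-fold lower). The groups lay close together, and its call was lost by DESeq2 (adjusted p = 0.0557), without a filter on low counts (0.0585), without knockout replicate 1 (0.0604) or 3 (0.12), or when control replicate 1 (0.0835) or 2 (0.123) was left out.

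Mest, which encodes an enzyme of the alpha/beta hydrolase family and is raised in expanding fat, stood at the head of its domain on chromosome 6. Mest (GRCm38 chromosome 6, 30723547 to 30748465, plus strand) was at 6.46, 7.16 and 5.27 CPM in the control libraries and 4.01, 4.87 and 4.82 CPM in the knockout libraries. Control replicate 3 lay close to the knockout libraries, but the groups did not overlap, and the mean was 1.38-fold lower in knockout cells. The coatomer gene Copg2, which runs toward Mest from the opposite strand, was at 57.5, 56.3 and 54.8 CPM in control and 67.7, 56.5 and 67.8 CPM in knockout libraries (log2 fold change 0.19, SE 0.068). Knockout replicate 2 lay among the control libraries, and Copg2 was called higher without it (edgeR adjusted p = 0.000733) and without a filter on low counts (0.0097), but not with the filter and all 6 libraries. Their exons share 912 bases, 23.1% of those of Mest and 17.8% of those of Copg2, and Copg2 was the more abundant (60.1 against 5.43 CPM over all libraries), so the Mest values depend on whether counting used strand. The Mest call was lost when leaving out control replicate 1 (edgeR adjusted p = 0.0924) or 2 (0.106), or knockout replicate 1 (0.0754) or 3 (0.0504).

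**Figure D4:**
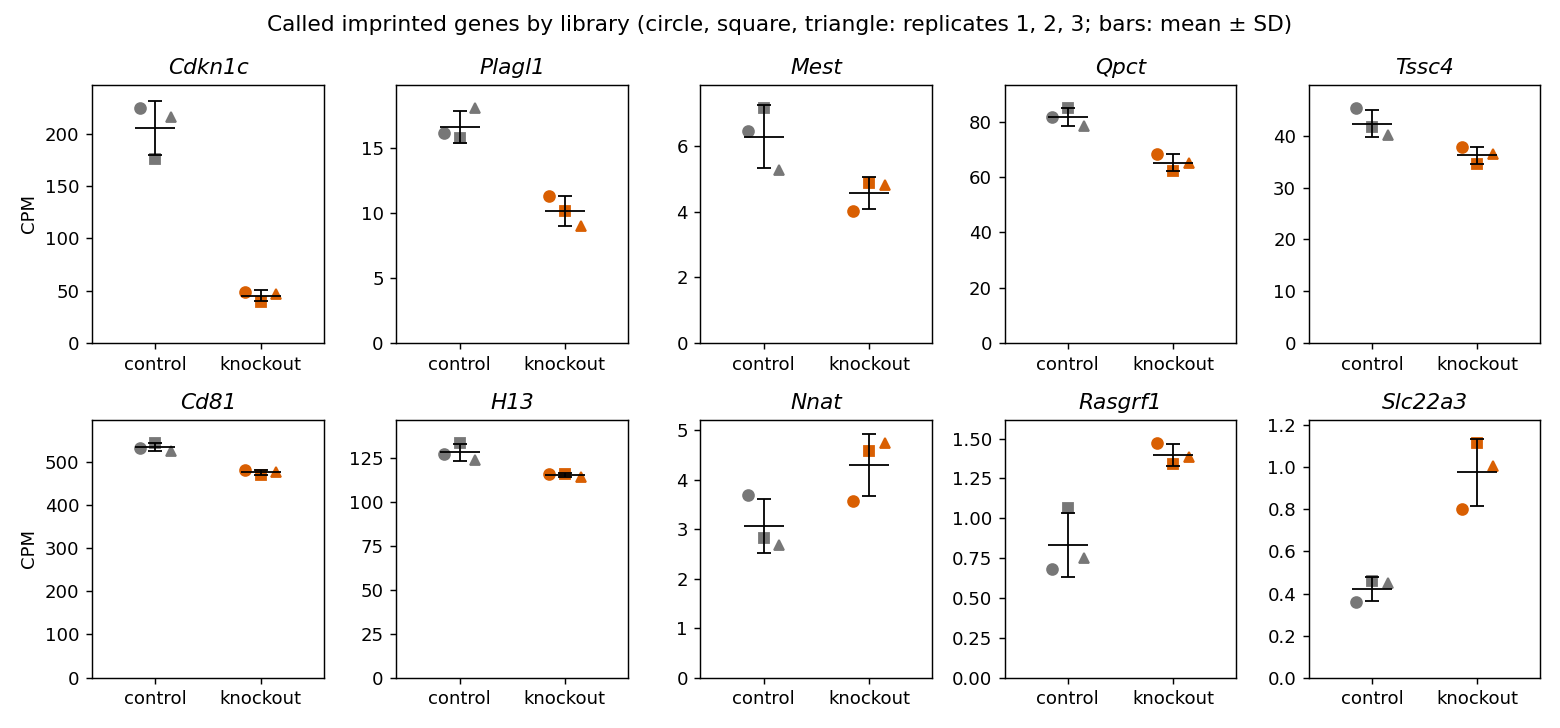
CPM of the 10 called members in each library (circle, square and triangle for replicates 1, 2 and 3), with the mean and SD of each group, on axes that start at 0. The groups are clear of each other for Cdkn1c, Plagl1 and Slc22a3, and they overlap for Nnat, whose control replicate 1 at 3.69 CPM lies above knockout replicate 1 at 3.58 CPM.

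The domain of Peg10 on chromosome 6 holds genes with fitted values all below 0 and 0 calls. Sgce, which encodes epsilon-sarcoglycan, was at 137, 132 and 134 CPM in control and 125, 117 and 127 CPM in knockout libraries, and the groups did not overlap (log2 fold change -0.13, SE 0.047). Its neighbour Peg10, derived from a retrotransposon and starting close to Sgce in the opposite direction, was at 41.7, 32 and 41.8 CPM in control and 23.5, 31.2 and 29.9 CPM in knockout libraries (log2 fold change -0.45, SE 0.14). Control replicate 2 lay near the knockout libraries, and Peg10 was called lower without it (edgeR adjusted p = 0.00594), by DESeq2 (adjusted p = 0.000943), limma-voom (0.0184), with total count scaling (0.049) and without a filter on low counts (1.6e-07). Without that filter the log2 fold change of Peg10 was almost the same (-0.44), so the far smaller adjusted p reflects no larger change. Ppp1r9a, the gene of the actin-binding protein neurabin, was at 1.31, 1.17 and 1.62 CPM in control and 0.803, 0.637 and 1.12 CPM in knockout libraries (log2 fold change -0.69, SE 0.24) and was called lower without knockout replicate 3 (edgeR adjusted p = 0.0329) and without a filter on low counts (0.0394). Asb4, a SOCS box gene, lay between 0.368 and 0.496 CPM over the 6 libraries.

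The largest rise among the members was that of Slc22a3, the gene of organic cation transporter 3, which lies in the Igf2r domain on chromosome 17. Slc22a3 (GRCm38 chromosome 17, 12418960 to 12507704, minus strand) was at 0.357, 0.461 and 0.452 CPM in the control libraries and 0.803, 1.11 and 1.01 CPM in the knockout libraries. Its level was low, with 12, 13 and 12 counts in control and 24, 35 and 27 in knockout libraries, and the groups did not overlap (2.32-fold higher; log2 fold change 1.21, SE 0.26). It was called in all 14 alternative fits that tested it, and did not pass a minimum of 1 CPM in 3 samples. Airn, the long non-coding RNA that silences the paternal copies of this domain, was at 5.54, 4.82 and 5.24 CPM in control and 5.42, 5.8 and 6.09 CPM in knockout libraries and was not called, with a log2 fold change of 0.15 (SE 0.11). Igf2r, which Airn overlaps on the opposite strand and which is no member, had means of 392 ± 19.5 and 397 ± 17.5 CPM (SD, n = 3), with no call.

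Rasgrf1, which encodes an exchange factor for RAS and RAC proteins, was at 0.685, 1.06 and 0.753 CPM in control and 1.47, 1.34 and 1.38 CPM in knockout libraries (1.68-fold higher). These were low levels, though the groups did not overlap. The Rasgrf1 call was lost by DESeq2 (adjusted p = 0.0905), without knockout replicate 1 (0.0609) or 3 (0.0635), or when control replicate 1 (0.117) or 3 (0.0639) was left out.

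Nnat encodes neuronatin, a small membrane protein of the endoplasmic reticulum, and lies in an intron of Blcap. Nnat was at 3.69, 2.83 and 2.67 CPM in control and 3.58, 4.59 and 4.74 CPM in knockout libraries (1.39-fold higher). The groups overlapped, and the call was lost by DESeq2 (adjusted p = 0.0657), limma-voom (0.0591), and when knockout replicate 2 (0.0936) or 3 (0.167) or control replicate 2 (0.161) or 3 (0.143) was left out. Blcap was at 48.7, 49.7 and 50.6 CPM in control and 54.1, 52.6 and 50.6 CPM in knockout libraries and was not called, with a log2 fold change of 0.079 (SE 0.052).

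None of the 5 genes of the Dlk1-Meg3 domain on chromosome 12 was called by edgeR with the filter on low counts and all 6 libraries. Dlk1 encodes preadipocyte factor 1, a membrane protein that restrains adipogenesis, and was at 6.61, 4.39 and 10.2 CPM in control and 6.92, 8.54 and 8.44 CPM in knockout libraries (log2 fold change 0.18, SE 0.29). The control libraries spread widely, with a coefficient of variation of 41.3%, and replicate 2 was lowest. The retrotransposon-derived gene Rtl1 was at 2.86, 1.7 and 3.99 CPM in control and 1.84, 1.69 and 1.9 CPM in knockout libraries (log2 fold change -0.65, SE 0.26), with the same control library lowest. Without control replicate 2, Rtl1 was called lower (edgeR adjusted p = 0.00547), as it was without a filter on low counts (0.00343).

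The maternally expressed RNAs of that domain follow. Meg3, a long non-coding RNA, was at 7.62, 9.28 and 9.68 CPM in control and 9.5, 10.9 and 10.1 CPM in knockout libraries (log2 fold change 0.20, SE 0.11). Rian, a host of small nucleolar RNAs, was at 38.1, 40.8 and 44.6 CPM in control and 41.1, 33.3 and 40.3 CPM in knockout libraries (log2 fold change -0.11, SE 0.085). Mirg, a host of microRNAs, was at 4.79, 5.53 and 6.25 CPM in control and 6.05, 5.64 and 5.97 CPM in knockout libraries (log2 fold change 0.10, SE 0.12). The groups overlapped for all 3, and none was called in any fit.

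The Peg3 domain of chromosome 7 held 1 gene near the threshold. Peg3, which encodes a large zinc finger protein, was at 2.56, 3.51 and 3.84 CPM in control and 4.65, 4.05 and 4.67 CPM in knockout libraries, and the groups did not overlap (log2 fold change 0.44, SE 0.15). It was not called at an edgeR adjusted p of 0.053, but was called higher with DESeq2 size factors (0.0499), upper-quartile scaling (0.0492), without a filter on low counts (0.0154), and without control replicate 3 (0.0289) or knockout replicate 2 (0.0293). The zinc finger gene Zim1 lay between 0.354 and 0.49 CPM with ethanol and between 0.368 and 0.573 CPM with 4-hydroxytamoxifen. Usp29, which starts head to head with Peg3, had 2, 2 and 1 counts in control and 0, 0 and 1 in knockout libraries.

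None of the 5 tested genes of the Snrpn-Ube3a domain of chromosome 7 was called in any fit. Ndn, the gene of the growth suppressor necdin, was at 33.7, 36.6 and 30.8 CPM in control and 32.1, 33 and 34.6 CPM in knockout libraries (log2 fold change -0.022, SE 0.069). Ube3a, a ubiquitin ligase gene imprinted in neurons, was at 153, 163 and 155 CPM in control and 172, 149.8 and 163 CPM in knockout libraries (log2 fold change 0.039, SE 0.054). Its antisense RNA Snhg14, which silences the paternal copy in neurons, had means of 1.34 CPM (control) and 1.06 CPM (knockout). Snrpn, the gene of a core splicing protein, was at 1.76, 1.95 and 1.92 CPM in control and 2.17, 2.07 and 2.28 CPM in knockout libraries, without overlap between groups (log2 fold change 0.21, SE 0.15). It shares 27.3% of its exonic bases with Gm38393, an overlapping gene model at 0.986 CPM, and its counts are uncertain to that extent. Peg12, which encodes a FRAT family protein that binds the Wnt pathway kinase GSK3, was at 4.08, 4.99 and 3.65 CPM in control and 3.88, 3.63 and 3.32 CPM in knockout libraries (log2 fold change -0.23, SE 0.14). Mkrn3, a ring finger gene, was at 0.923, 0.744 and 0.979 CPM in control and 0.903, 1.08 and 1.19 CPM in knockout libraries (log2 fold change 0.26, SE 0.22).

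Of the members with the highest CPM that were not called, Gnas was at 650.3, 616 and 677 CPM in control and 599.8, 709 and 628 CPM in knockout libraries (log2 fold change -0.0057, SE 0.062). Transcripts of Gnas from either parental copy were counted together, and it shares 13.1% of its exonic bases with Gm20721 (0.584 CPM) on the opposite strand. Grb10, the adaptor that binds and restrains the insulin receptor, was at 223, 224 and 238 CPM in control and 234, 253 and 243 CPM in knockout libraries (log2 fold change 0.10, SE 0.049). Impact, which encodes an inhibitor of the kinase GCN2, was at 149, 162 and 144 CPM in control and 139, 134 and 140.5 CPM in knockout libraries (log2 fold change -0.14, SE 0.053). The groups did not overlap for Impact, and it was called lower without control replicate 3 (edgeR adjusted p = 0.0326).

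Zrsr1 and Commd1 form a nested pair on chromosome 11, where the paternally expressed Zrsr1, a splicing factor gene, lies inside the maternally expressed Commd1 on the opposite strand. The pair shares 412 exonic bases, 9.17% of those of Zrsr1 and 6.94% of those of Commd1. The values of both depend to that extent on whether counting used strand. Zrsr1 was at 10.7, 11.2 and 11.7 CPM in control and 13.2, 11.2 and 13.6 CPM in knockout libraries (log2 fold change 0.18, SE 0.092). Commd1, which encodes a copper- and NF-kappaB-related protein, was at 24.1, 23.7 and 21.7 CPM in control and 21.2, 18.9 and 20.7 CPM in knockout libraries (log2 fold change -0.20, SE 0.073). The ratio of Zrsr1 to Commd1 counts ran from 0.445 to 0.539 over the control libraries and from 0.595 to 0.655 over the knockout libraries. Among other ratios computed, those of Meg3 to Dlk1 (0.952 to 2.11 in control, 1.20 to 1.37 in knockout) and Peg10 to Sgce (0.242 to 0.311, 0.189 to 0.266) overlapped. That of Rian to Meg3 (4.40 to 4.99 in control, 3.06 to 4.33 in knockout) did not, and no ratio was tested. Zrsr1 was called higher without knockout replicate 2 (edgeR adjusted p = 0.0365) and Commd1 lower without control replicate 3 (0.0407), and neither with all 6 libraries.

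A like nesting holds for Peg13, a non-coding RNA inside an intron of Trappc9. Peg13 was at 12.3, 12.9 and 12.4 CPM in control and 13.5, 13.6 and 14.5 CPM in knockout libraries, without overlap between groups (log2 fold change 0.15, SE 0.077). Trappc9, a trafficking complex gene, was at 43.3, 44.8 and 43.7 CPM in control and 44.5, 48.5 and 45.1 CPM in knockout libraries (log2 fold change 0.068, SE 0.055). Inpp5f, a phosphoinositide phosphatase gene, was at 18.9, 20.0 and 18.8 CPM in control and 20.6, 17.4 and 21.3 CPM in knockout libraries, and Nap1l5, which lies inside Herc3, had means of 1.3 ± 0.146 and 1.29 ± 0.0688 CPM for control and knockout cells (SD, n = 3). None of these 4 was called in any fit. Ddc, the aromatic amino acid decarboxylase gene beside Grb10, had 6, 6 and 8 counts in control and 4, 3 and 3 in knockout libraries.

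Of 27 tested genes outside the list, taken as imprinted from background knowledge, 5 were called higher and 3 lower. That is 29.6% called, against 22.4% of all tested genes, and the median log2 fold change of the 27 was 0.058. They include Nap1l4, Tspan32, Osbpl5, Tnfrsf23 and Dhcr7 of the window around Cdkn1c, of which only Nap1l4 was called. Whether any of the 27 is imprinted in these cells cannot be told from counts per gene. Besides Igf2, the matrix protein gene Smoc1 rose from 9.07 ± 1.43 to 16 ± 2.27 CPM (1.77-fold) and the AMP deaminase gene Ampd3 from 8.98 ± 0.761 to 11.3 ± 0.876 CPM (1.25-fold; means ± SD, n = 3). The protease inhibitor gene Tfpi2 fell from 2.25 ± 0.259 to 1.55 ± 0.219 CPM, the amino acid transporter gene Slc38a4 from 42.2 ± 6.27 to 30.8 ± 1.24 CPM and decorin (Dcn), also a fibroblast marker above, from 1048 ± 132 to 818 ± 3.28 CPM. Without knockout replicate 2, 5 of these genes were called, 1 of them lower, and without knockout replicate 1, 10 were called, 7 of them higher.

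Among 29 tested genes of factors that set or keep imprints, 2 were called, both lower (6.9%, against 22.4% of all tested genes called and 10.5% called lower), and the median log2 fold change was -0.077. They were Uhrf1, which recruits the maintenance DNA methyltransferase to replicating DNA (68.4 ± 2.26 and 54.3 ± 2.13 CPM in control and knockout cells), and the chromatin remodeller gene Hells (137 ± 6.38 and 107 ± 8.39 CPM). Dnmt1, the maintenance methyltransferase gene, was at 262 ± 9.01 and 237 ± 11.1 CPM, Trim28 at 188 ± 7.59 and 171 ± 14.2 CPM and Zfp57 at 6.09 ± 0.701 and 4.97 ± 0.169 CPM, none of them called (genes picked with their values in view). The CPM of the groups did not overlap for 12 of the 29 genes lower and 2 higher in knockout cells, where 19.3% and 18.5% of all genes did so. Without knockout replicate 2, 7 genes of this list were called, 6 of them lower, with 4 called with total count scaling and 5 without a filter on low counts.

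Cdkn1c belongs to the CIP/KIP inhibitors of cyclin-dependent kinases. Of 22 tested genes of the other inhibitors and their partners, 3 were called higher and 8 lower (50% called, against 22.4% of all tested genes), with a median log2 fold change of -0.072. The inhibitor gene Cdkn1a, which encodes p21, rose from 79.6 ± 4.05 to 102 ± 7.42 CPM (1.29-fold), and Cdkn1b, which encodes p27, was at 123 ± 4.19 and 125 ± 5.43 CPM, with no call (chosen after its values were seen). Cdk6 rose from 4.89 ± 0.352 to 7.28 ± 0.459 CPM and the retinoblastoma gene Rb1 from 33.9 ± 2.3 to 43.9 ± 1.9 CPM. The kinase subunit gene Cks1b fell from 35.2 ± 0.791 to 24.4 ± 2.17 CPM, Cdk4 from 395 ± 2.53 to 321 ± 8.64 CPM and E2f1 from 29.8 ± 1.57 to 24.3 ± 1.06 CPM. All cells carried SV40 large T antigen, which binds the retinoblastoma proteins. Without control replicate 1, 6 genes of the list were called, 3 in each direction.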

How the data were processed

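Raw read counts for 49671 Ensembl genes in 6 columns were deposited by the authors, 1 column per library, and columns were matched to samples by title. GRCm38, DESeq2 1.16.0, featureCounts 1.5.1 and STAR 2.5.2b appear, with no roles, in the submitters' processing notes. The libraries came from a strand-specific total RNA kit, per the labels' protocols. The annotation release, the strand setting and the treatment of multi-mapping reads were not given in the sources used here.

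Knockout and control were compared with edgeR 4.0.16 under R 4.3.3 (robust quasi-likelihood F-test, TMM, filterByExpr, group as the only term), with Benjamini-Hochberg adjustment over 14946 tested genes and calls under 0.05. SE is the size of the log2 fold change divided by the square root of F. The alternatives used DESeq2 1.42.0, limma-voom (limma 3.58.1), other scalings and filters, a threshold of 0.01, and fits without each library; the fit without control replicate 3 and knockout replicate 2 was chosen after seeing the data. The test was tried on simulated data. Gene places, exon lengths and overlaps are those of GENCODE M21 (GRCm38). Every pair of libraries differed beyond sampling noise (chi-square per degree of freedom of 3.99 or more).

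The members and lists were chosen with earlier results of these data known. All members are accounted for. The value of 1 marker gene is not reported here. In lists outside the members, up to 3 called genes per direction with a mean log2 CPM of at least 0 and the largest change are named, together with each tested gene within 500 kb of Cdkn1c.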

Additional observations from a re-analysis of the deposited data

How the results depend on the processing

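Of 10 called members, 4 (Cdkn1c, Plagl1, Qpct and Slc22a3) were called in every alternative that tested them, 6 were lost in at least 1, and 9 of 31 uncalled members were called in at least 1; no called member changed sign. At an adjusted p under 0.01, called members fell to 4 (1 higher, 3 lower), called genes near Cdkn1c to 3 (1 higher, 2 lower) and all called genes to 1934 (1105 higher, 829 lower), as the threshold sets. Members called higher numbered 5 without a filter on low counts and 1 with DESeq2, which also called 1 gene near Cdkn1c higher. The cause was not tested. The fit without a filter spanned 28409 genes and gave Peg10 and Rtl1 far smaller adjusted p-values at almost the same fold changes, so its added calls need caution. With 1 library left out, called members ran from 5 to 12 (1 to 5 higher, 4 to 9 lower), called genes near Cdkn1c from 3 to 7 (1 to 3 higher, 2 to 4 lower) and all called genes from 2145 to 3475 (1222 to 1829 higher, 923 to 1646 lower), with fewer samples in each fit. Without control replicate 3 and knockout replicate 2 together, 3957 genes were called, 1913 of them lower. No paired analysis was possible because no replicate number is shared between groups in the labels. Members at under 1 CPM rest on few counts, and small changes in them were not detectable at this depth.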
